A study of Mus musculus with 2 samples.

Results

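The E proteins, their ID inhibitors, the Ikaros factors and Ebf1 are transcription regulators of the lymphoid lineages, and their transcripts were examined here in mouse B cells carrying or lacking the microRNA miR-155. The members were the 9 genes Tcf3, Tcf4, Tcf12, Id2, Id3, Ikzf1, Ikzf3, Ikzf5 and Ebf1, chosen by name, out of 18193 genes with a singly named probe set on the array. A probe set is a group of short probes on the array that together read one stretch of transcript. The members had 30 probe sets that named one of them and no other gene, out of 45101 on the array. All 9 genes and 27 of the 30 probe sets were expressed, which here means a mean log2 intensity over both arrays of 6.71 or more, the middle value among the non-control probe sets.

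The series holds 2 arrays, 1 of B cells labelled mir155 KO and 1 of B cells labelled mir155 WT, both on a C57 background. The series describes cultured and activated B cells, whereas the growth protocol names haematopoietic progenitors of male mice kept in G-CSF and stem cell factor. Both samples received cycloheximide, an inhibitor of translation, at 100 ug/ml for 8 min before harvest. Titles and genotype entries gave the assignment used here, and the source names gave the opposite one for both arrays.

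The targeted locus went against the titles. Mir155hg, the host transcript of miR-155, had a level of 10.88 on the KO-labelled array and 6.63 on the WT-labelled array, and whether its probe set lies outside the deleted part was not determined here. Each array is therefore called by its title, as KO-labelled or WT-labelled, every difference is the KO-labelled array minus the WT-labelled array on the log2 scale, and all signs turn over if the source names are right. With 1 array per label there is no replicate spread, no p-value and no error bar. As a technical yardstick, the differences given by the 2 brightest expressed sets of one gene lay a median of 0.084 apart in 4906 genes, and the 95th percentile of that gap was 0.31. Over all 10717 expressed genes the difference had a median of 0.026, and its central 95% ran from -0.39 to 0.37.

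E proteins are basic helix-loop-helix factors that pair through the helix-loop-helix and bind E-box DNA through the basic region. ID proteins keep the helix-loop-helix but have no basic region, so an E protein that pairs with one cannot bind DNA. In B cells E proteins act with EBF1 to install and hold the lineage program, and Ikaros factors are zinc finger proteins that bind DNA as dimers and recruit chromatin remodelling and corepressor complexes.

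The sequences below show the microRNA whose locus was targeted and the promoters of 3 genes whose levels are given here. Id2 and Id3 encode a pair of closely related inhibitors of which Id2 was lower on the KO-labelled array and Id3 close to equal, and Cd79a is a textbook target of E proteins and EBF1. The mature microRNA lies at chr16:84714143-84714165 on the plus strand, and its capitals mark the seed, bases 2 to 8. In the promoters, 250 bases before to 50 after the start, capitals mark the E-box form CAGNTG on either strand, so that CANCTG is marked too. The Id2 window is chr12:25096043-25096342 on the minus strand, the Id3 window chr4:136143572-136143871 on the plus strand and the Cd79a window chr7:24897247-24897546 on the plus strand. All 4 sequences are from RefSeq, build GRCm38.p6.
mmu-miR-155-5p: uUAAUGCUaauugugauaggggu
Id2: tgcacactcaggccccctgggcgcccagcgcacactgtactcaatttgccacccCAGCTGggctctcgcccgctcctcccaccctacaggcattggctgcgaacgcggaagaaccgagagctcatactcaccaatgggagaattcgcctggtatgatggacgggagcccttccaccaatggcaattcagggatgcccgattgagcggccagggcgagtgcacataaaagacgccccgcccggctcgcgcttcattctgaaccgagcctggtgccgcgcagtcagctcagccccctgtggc
Id3: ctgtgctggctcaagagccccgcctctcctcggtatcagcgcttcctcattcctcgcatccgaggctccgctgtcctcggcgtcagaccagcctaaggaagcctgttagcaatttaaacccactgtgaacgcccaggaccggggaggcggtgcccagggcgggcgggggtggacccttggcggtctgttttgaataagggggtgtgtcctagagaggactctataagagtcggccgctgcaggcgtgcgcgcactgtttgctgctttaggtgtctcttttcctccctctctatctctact
Cd79a: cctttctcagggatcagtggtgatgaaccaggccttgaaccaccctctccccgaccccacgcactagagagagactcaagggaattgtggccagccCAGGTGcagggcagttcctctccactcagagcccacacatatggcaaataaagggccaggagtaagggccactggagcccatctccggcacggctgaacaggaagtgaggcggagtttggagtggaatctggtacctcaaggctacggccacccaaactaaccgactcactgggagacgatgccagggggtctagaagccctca

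The Id2 window held 1 such E-box and the Cd79a window 1, and these letters were not in the Id3 window. The motif was in 51.4% of 32851 promoter windows of the same length. The Ikaros core GGGAA, searched on both strands and so also as TTCCC, was in 62.7% of those windows, and in the Cd79a window once. Promoter windows were matched for 7 of the 9 members, 11 windows in all, of which 3 held CAGNTG and 4 held GGGAA. These matches describe the letters in the windows and are not binding sites.

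Among the E proteins, Tcf4 was lower on the KO-labelled array at every one of its 6 probe sets. Tcf4 encodes the E protein E2-2, which is known for plasmacytoid dendritic cells and is also used in B cells and plasma cells. The brightest set read 11.24 on the KO-labelled array and 11.65 on the WT-labelled array, a difference of -0.41 or 0.755-fold. The next sets read 10.65 (KO-labelled) against 11.05 (WT-labelled), 10.58 (KO-labelled) against 11.07 (WT-labelled), and 10.60 (KO-labelled) against 10.89 (WT-labelled). The fifth read 9.50 on the KO-labelled array against 9.86 on the WT-labelled array, and the dimmest, which was below the level for expression, 6.43 on the KO-labelled array against 6.70 on the WT-labelled array. The 5 expressed sets thus spanned differences from -0.49 to -0.29, a spread of 0.19 within the gene.

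Agreement of a gene's sets at this size was counted over all genes. Of 2118 genes with 3 or more expressed probe sets, 1.79% had all of them lower by 0.25 or more, a rule set after the values were seen. Tcf4 and Id2 were both among these 38 genes, which is no separate support because the rule followed their values. The sets of a gene also read the same 2 arrays and are not replicates. Of the 5 members with 3 or more expressed sets, 2 had all of them in 1 direction, as did 49.2% of the 2118 genes. Of the 353 genes with 5 or more expressed sets 1.70% met the rule, Tcf4 among them. The second-brightest Tcf4 set carries the suffix _x_at, which Affymetrix gives to sets whose probes may also match other transcripts, and its difference of -0.40 lay inside the range of the others.

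Tcf3, which encodes the E protein E2A, was slightly higher on the KO-labelled array. Its brightest set read 10.68 on the KO-labelled array and 10.50 on the WT-labelled array, a difference of 0.18, and its second set 9.97 (KO-labelled) against 9.74 (WT-labelled), a difference of 0.23. The dimmest, an _x_at set, read 7.85 (KO-labelled) against 7.95 (WT-labelled), a difference of -0.099, so the direction of Tcf3 was not the same at all its sets. Differences at least as high as that of the brightest set were seen in 15.7% of expressed genes.

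Tcf12, which encodes the E protein HEB, showed no common direction. Its brightest set read 11.85 on the KO-labelled array and 11.82 on the WT-labelled array, a difference of 0.037 that is smaller than the usual disagreement of 2 sets. The other 4 sets, all expressed, differed by -0.056, -0.073, 0.19 and -0.18 from the brightest to the dimmest, and 3 of the 5 were lower. The plot of levels by probe set shows the Tcf4 pairs opening the same way at every set, while those of Tcf3 and Tcf12 cross over.

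**Figure D1:**
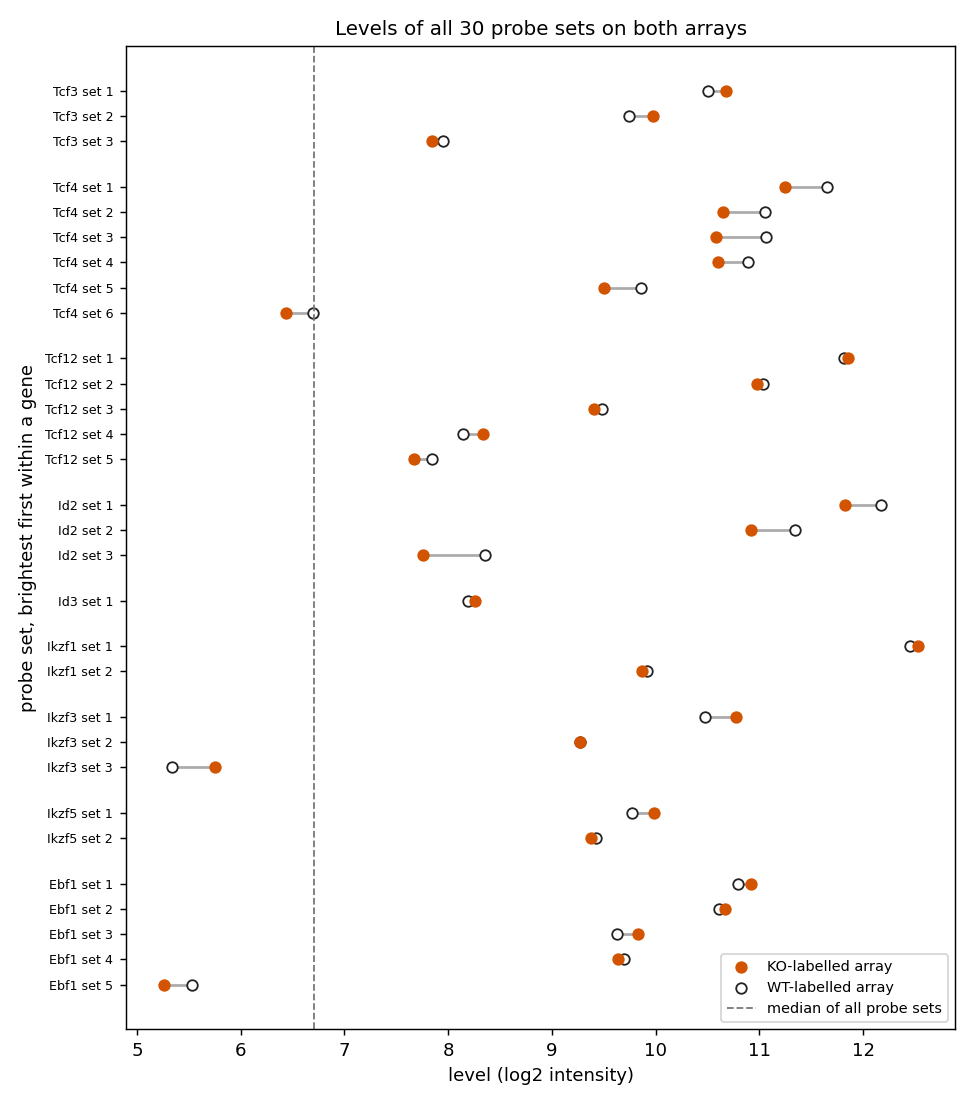
Level in log2 intensity (x axis) of each of the 30 probe sets of the 9 genes (y axis, brightest first within a gene) on the KO-labelled array (filled) and the WT-labelled array (open), 1 array each and so without error bars. All 6 Tcf4 sets and all 3 Id2 sets lie lower on the KO-labelled array, and 3 sets lie left of the dashed line at 6.71, the level for expression.

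The ID genes differed from one another. Id2, an inhibitor that restrains E proteins and is needed for natural killer cells, innate lymphoid cells and several dendritic cells, was lower on the KO-labelled array at all 3 of its probe sets. The brightest set read 11.83 on the KO-labelled array and 12.18 on the WT-labelled array, a difference of -0.35 or 0.787-fold. The second read 10.92 (KO-labelled) against 11.35 (WT-labelled), a difference of -0.43. The third and dimmest read 7.76 (KO-labelled) against 8.36 (WT-labelled), a difference of -0.60, and was the single member set at or past 0.5 in either direction. Among expressed probe sets with a single gene 1.15% were lower by that much and 0.782% higher.

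Id3, the paralog that is known to restrain E proteins in B cells, was read by 1 probe set. It had a level of 8.26 on the KO-labelled array and 8.19 on the WT-labelled array, a difference of 0.070, less than the yardstick's median. Taken on the same pair of arrays, the difference of Id3 was 0.41 above that of the brightest Id2 set. The difference of Tcf3 was 0.52 above that of Id2, that of Tcf12 0.38 above it, and the contrast of Tcf4 with Id2 was -0.061. These are contrasts of differences within the arrays and say nothing of the relative amounts of the proteins.

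The other 2 members of the ID family gave little signal. Id1 was near the level for expression, with 6.82 on the KO-labelled array against 7.07 on the WT-labelled array, a difference of -0.25. Id4 was below it on both arrays, at 5.05 (KO-labelled) against 5.65 (WT-labelled).

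Among the Ikaros factors, the brightest set of every gene was higher on the KO-labelled array, but no gene had all its sets in 1 direction. Ikzf1, which encodes Ikaros itself, had a level of 12.53 on the KO-labelled array and 12.45 on the WT-labelled array at its brightest set, a difference of 0.077. Its second set read 9.87 (KO-labelled) against 9.92 (WT-labelled), a difference of -0.050, so both lay within the usual disagreement of sets around 0.

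Ikzf3, which encodes Aiolos, the family member most tied to mature B cells and plasma cells, had the highest difference of the 9 genes. Its brightest set read 10.77 on the KO-labelled array and 10.48 on the WT-labelled array, a difference of 0.29 or 1.23-fold, and 4.98% of expressed genes were at least as high. The second set read 9.27 on both arrays, with a difference of -0.0059, and the third, below the level for expression, 5.75 (KO-labelled) against 5.33 (WT-labelled). The higher level was thus seen at 1 of 2 expressed sets.

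Ikzf5, which encodes the family member Pegasus, showed the same split. One set read 9.98 on the KO-labelled array and 9.77 on the WT-labelled array, a difference of 0.21, and the other 9.38 (KO-labelled) against 9.43 (WT-labelled), a difference of -0.053. Of the paralogs that are not members, Ikzf2 was below the level for expression at 5.65 (KO-labelled) against 5.58 (WT-labelled). Ikzf4 was close to it at 6.76 (KO-labelled) against 6.79 (WT-labelled).

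Ebf1, the early B cell factor that acts with E2A at B lineage genes, was well expressed. At 3 of its 4 expressed sets it was slightly higher on the KO-labelled array. Its brightest set read 10.92 on the KO-labelled array and 10.79 on the WT-labelled array, a difference of 0.12. The next set read 10.67 (KO-labelled) against 10.61 (WT-labelled), and the third 9.83 (KO-labelled) against 9.63 (WT-labelled). Their differences were 0.059 and 0.20, and that of the fourth set was -0.053. The dimmest set, at 5.26 (KO-labelled) against 5.53 (WT-labelled), was below the level for expression. Ebf2, Ebf3 and Ebf4 were also below it on both arrays.

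Taken by the brightest set of each gene, 7 of the 9 members were higher and 2 lower on the KO-labelled array, with a median of 0.077, while 56.9% of all expressed genes were higher and 42.1% lower. Taken by probe set, 11 of the 27 expressed sets were higher and 16 lower, with a median of -0.053, and Tcf4 and Id2 have 8 of these sets. Over all expressed sets 58.8% were higher and 40.2% lower, with a median of 0.034. None of the 9 genes reached 0.5, which 0.681% of expressed genes did upward and 1.31% downward. Past the yardstick's 95th percentile of 0.31 lay 2 members, Tcf4 and Id2, and 8.54% of expressed genes did so in either direction. Differences at least as low as that of Tcf4 were seen in 2.24% of expressed genes, and at least as low as that of Id2 in 3.34%. Tcf12, Id3 and Ikzf1 lay within the yardstick's median, as did 42.8% of expressed genes.

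**Figure D2:**
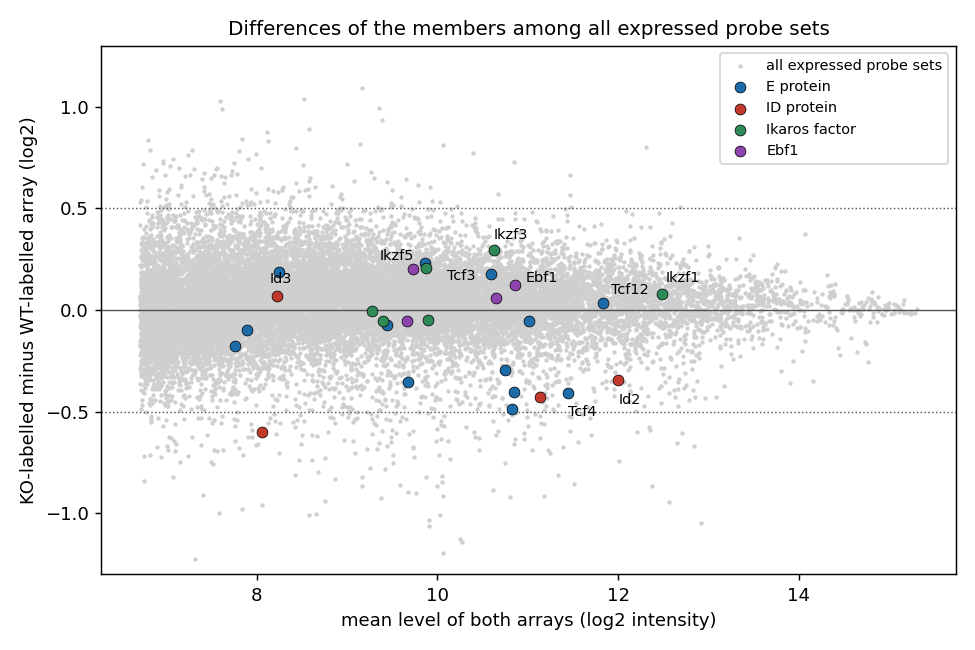
Difference between the KO-labelled array and the WT-labelled array (y axis, log2) against the mean level of both arrays (x axis, log2 intensity) for all expressed probe sets (grey) and the 27 expressed member sets (coloured by family, the brightest set of each gene named). Dotted lines mark 0.5 in each direction, 11 grey sets beyond 1.3 are outside the plot, and the 8 expressed sets of Tcf4 and Id2 form the low group.

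Genes that work with these factors were compared next, as 6 lists chosen with earlier results of these arrays known. The reported targets of E2A and EBF1 in the B lineage were mostly higher on the KO-labelled array. Of 16 listed genes 14 were measured and 11 expressed, and 9 of these were higher and 2 lower. Their median was 0.20 against 0.026 over all expressed genes. Of all expressed genes 56.9% were higher and 42.1% lower, the background for the counts of every list and marker set below. None of the 11 reached 0.5, which 0.681% of expressed genes did upward and 1.31% downward, so none is close to the usual share. Blk, a kinase of the B cell receptor pathway, read 9.64 on the KO-labelled array and 9.14 on the WT-labelled array, a difference just under 0.5 (0.4997), and Pou2af1, a B cell coactivator of octamer-binding factors, read 12.69 (KO-labelled) against 12.21 (WT-labelled), a difference of 0.48.

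Cd79a, whose promoter is printed above and which encodes a signalling chain of the B cell receptor, read 11.24 on the KO-labelled array and 11.04 on the WT-labelled array, a difference of 0.20. The lowest of the list were Blnk, an adaptor of the same receptor (-0.070), and Foxo1, a transcription factor of B cell development (-0.058). Vpreb1, Rag1 and Rag2, which mark precursors of B cells, were below the level for expression. The list shares 5 genes with the B cell markers, so its values are not separate from those markers.

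Of 8 reported Ikaros targets 3 were expressed, and all 3 were higher on the KO-labelled array, with a median of 0.16. They were Dtx1, a regulator of Notch signalling (0.26), the cyclin gene Ccnd3 (0.16) and the surrogate light chain gene Igll1 (0.023). The expressed sets of Ccnd3 ran from -0.21 to 0.16. Igll1, read by an _x_at set, lay within the yardstick's median of 0.084 and below the median of 0.026 over all expressed genes.

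Partners and cofactors of E proteins stood near the middle of all genes. Of 8 expressed members of 13, 7 were higher and 1 lower on the KO-labelled array, with a median of 0.074. The highest was Lyl1, a basic helix-loop-helix factor that pairs with E proteins, at 9.73 (KO-labelled) against 9.39 (WT-labelled), a difference of 0.34, followed by Lmo2 (0.17), a bridging protein of such complexes. The lowest were the coactivator gene Crebbp (-0.068) and Bhlha15 (0.047), a factor of secretory cells.

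Genes of the NuRD and corepressor complexes that Ikaros factors recruit were also close to equal. Of 16 expressed members of 17, 12 were higher and 4 lower, with a median of 0.048. The highest were Mta1 (0.25) and the helicase gene Chd3 (0.24), and the lowest were the scaffold gene Sin3b (-0.077) and Mta3 (-0.062), whose own sets ran from -0.087 to 0.062.

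The genes for turnover of ID and Ikaros proteins were all expressed. Of these 9, 7 were higher and 2 lower, with a median of 0.096. Cul4a, a cullin scaffold (0.31), and Usp1, a deubiquitinase known to stabilise ID proteins (0.25), were the highest, and all 3 Usp1 sets lay between 0.25 and 0.38. Fzr1, an activator of the anaphase-promoting complex (-0.061), and Rbx1 (-0.014) were the lowest. The remaining paralogs outside the 9 genes had 2 expressed members, Id1 and Ikzf4, both lower, with a median of -0.14.

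**Figure D3:**
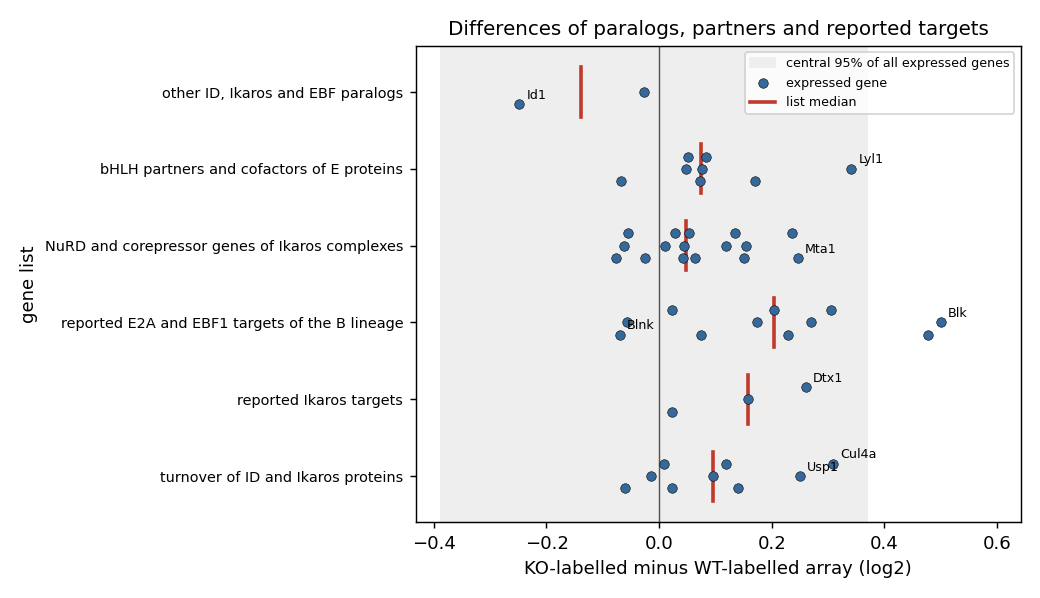
Difference between the KO-labelled array and the WT-labelled array (x axis, log2) for the expressed genes of the 6 lists (y axis), with the list median as a bar and the central 95% of all expressed genes, -0.39 to 0.37, shaded. Blk and its neighbour Pou2af1 (0.48), both among the E2A and EBF1 targets, are the 2 genes outside the shaded range.

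Several cell types other than B cells use Id2 or Tcf4, so their markers were read on the same arrays. All 7 measured B cell markers were expressed and higher on the KO-labelled array, with a median of 0.20, and their summed linear intensity was 49654 there against 40990 on the WT-labelled array. Of the macrophage and monocyte markers 6 of 7 were expressed, 5 of them lower and 1 higher, with a median of -0.22 and summed intensities of 808 (KO-labelled) against 920 (WT-labelled). Itgam was below the level for expression. The highest level of that list, 7.52 (KO-labelled) against 7.65 (WT-labelled) for Csf1r, was itself close to the level for expression.

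Plasmacytoid dendritic cell markers, of the type that depends on E2-2, had 5 of 6 expressed, with 2 higher and 3 lower, a median of -0.15 and summed intensities of 12495 (KO-labelled) against 13137 (WT-labelled). Siglech, a defining marker of that type, was below the level for expression on both arrays, and most of the sum came from Cox6a2 (0.042). Conventional dendritic cell markers had 2 of 5 measured genes expressed, Zbtb46 (-0.44) and Batf3 (0.37), with Itgax, Xcr1 and Cd209a below the level and summed intensities of 1447 (KO-labelled) against 1671 (WT-labelled).

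Natural killer cell markers had 3 of 6 measured genes expressed, 2 higher and 1 lower, with a median of 0.11. Their summed intensities, over all measured genes, were 1121 (KO-labelled) against 1053 (WT-labelled). The brightest was Gzma at 9.45 (KO-labelled) against 9.28 (WT-labelled), a difference of 0.17, beside Nkg7 (0.11) and Prf1 (-0.046). Ncr1, Eomes and Klrd1 were below the level. T cell markers had 4 of 6 expressed, with a median of -0.025 and sums of 861 (KO-labelled) against 863 (WT-labelled). Plasma cell markers had 6 of 6 expressed, with a median of 0.040 and sums of 32775 (KO-labelled) against 32126 (WT-labelled), but Prdm1, the driver of that fate, differed by -1.19 and Jchain by -0.56. Early B cell markers (1 of 5 expressed), neutrophil markers (2 of 10) and stem and progenitor markers (0 of 6) were mostly below the level, so defining markers were present for B cells and below the level for expression for the progenitors named in the protocol. The part that any other cell type had in the lower Id2 and Tcf4 was not tested, and fewer cells of a type cannot be told apart from less RNA per cell in such bulk samples.

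**Figure D4:**
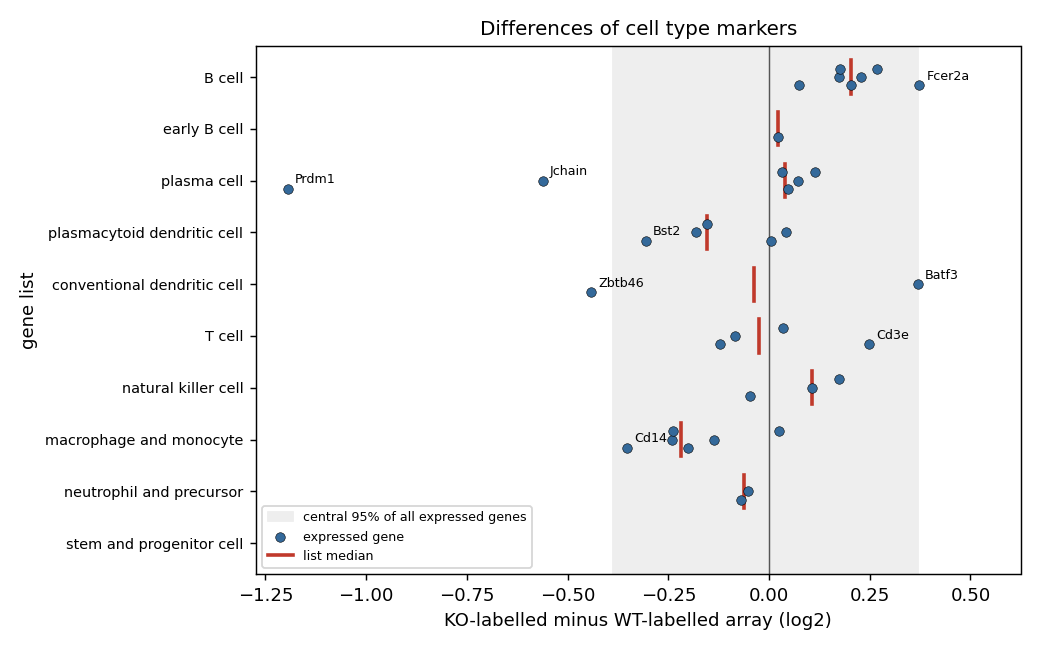
Difference between the KO-labelled array and the WT-labelled array (x axis, log2) for the expressed genes of the 10 marker lists (y axis), with the list median as a bar and the central 95% of all expressed genes, -0.39 to 0.37, shaded. The B cell markers all lie above 0, 5 of 6 macrophage markers lie below it, and Prdm1 (-1.19) and Jchain (-0.56) stand apart among plasma cell markers.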

How the data were processed

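RNA of the 2 samples had been labelled with the Affymetrix 3′ IVT Express kit, per the labels' protocols. The deposited table holds log2 intensities of 45101 probe sets, 3.09 at the lowest and 15.4 at the highest. Their range shows the log2 unit, while how the authors summarised and normalized them is not given in the sources used here. Once sorted, the arrays' values differed by at most 0.063, so a difference in total RNA would not be visible. Probe sets were named from the platform annotation, where 34945 had a single gene, 932 several, 9160 none and 64 were controls. Of the first, 34741 matched mouse RefSeq genes of GRCm38.p6 by Entrez number. A gene took its probe set with the highest mean level.

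The members and lists were chosen with earlier results of these data known. All 9 members with every probe set are named, with Mir155hg and, of each pathway list, the 2 highest and 2 lowest expressed genes and any at or past 0.5. Other genes were chosen after their values were seen. A few listed genes are not reported here. No test was possible with 1 array per label. Counting was tested on simulated data only at a 2-fold limit and with shifts larger than any member difference, so the counts at 0.5 were not checked by it. The alternatives tried were averaging a gene's sets, using plain _at sets, quantile normalization, subtracting a loess curve (span 0.3), dropping the filter and filtering at the 75th percentile. Planned pseudocounts were not needed on log2 values. Figures were drawn with matplotlib 3.10.9, and values were computed with statsmodels 0.14.6, NumPy 2.4.6 and pandas 2.3.3 under Python 3.11.15.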

Additional observations from a re-analysis of the deposited data

How the results depend on the processing

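Over 6 alternatives the lower levels of Tcf4 and Id2 kept their direction at every value given. All sets of both genes were lower, so averaging them or taking plain _at sets could not have turned that direction. Of 53 values given for the 9 genes 51 kept their sign, and all 60 recomputed for the 30 probe sets did. The exceptions were Tcf12, at -0.016 with the mean of its sets and -0.073 with plain _at sets. Many of the 53 values could not differ from the main ones. Changing the filter decides only whether a gene is given, and plain _at sets repeat the main value where the brightest set is plain. Agreement under those settings is thus no check of a gene's direction. The 60 probe set values came only from quantile normalization and the loess curve. Because the sorted arrays differed by at most 0.063, quantile normalization could turn only differences up to about that size. Its agreement at larger differences, such as those of Tcf4 and Id2, is thus no check either. With the mean of a gene's sets Id2 was -0.46, Ikzf5 0.078 and Ebf1 0.012, because dimmer sets then count as much as bright ones. With plain _at sets Id2 was -0.60, from its dimmest set, and 1 member then lay at or past 0.5 downward in place of 0. The median of the paralog list rests on 2 expressed genes in the main setting. It was -0.25 with mean sets, -0.028 with plain sets and -0.33 without a filter. These values equal the differences of Id1, Ikzf4 and Ebf4, because the genes that enter the median change with the setting. Without a filter all 7 listed genes enter, most of them below the level for expression. The Ikaros target list had medians of 0.064 with mean sets and 0.025 without a filter, when genes below the level for expression enter. At the 75th percentile filter Id3 and the paralog list had no expressed gene left. No paired analysis was possible because each label has 1 array, and no array could be left out. The number of arrays limits the precision, and dim sets such as those of Id1 and Ikzf4 lie close to the level for expression.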
